A study of Mus musculus with 16 samples.

Results

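The genes described here are the 10 transcripts of the MYC, MAX and MXD transcription factor network that were named for study as relevant to cell competition: *Myc*, *Mycn*, *Mycl*, *Max*, *Mxd1*, *Mxd3*, *Mxd4*, *Mxi1*, *Mnt* and *Mga*. They were chosen by symbol from the 29453 genes of the count table, and all 10 were found. Chimeric mouse embryos had been made by injecting tdTomato-expressing *Stat3* null embryonic stem cells (ESCs), in which coding exons of *Stat3* are missing, into wild-type (WT) CD1 blastocysts. Embryos of E7.5, E8.5 and E9.5 (days after conception) were dissociated, sorted by tdTomato, and sequenced cell by cell. At each stage a *Stat3* null group (tdTomato+, descended from injected ESCs of CD1 background) and a WT group (tdTomato-, cells of the CD1 host) came from the same chimeras. Each genotype had 2 libraries per stage at the earlier 2 stages and 4 libraries at E9.5. According to the labels a pool held about 10 embryos at E7.5, about 4 at E8.5 and 1 at E9.5. Null cells differ from WT cells by *Stat3*, by tdTomato, by drug selection and by a passage through ESC culture, and no WT ESCs were injected, so that these differences cannot be told apart. The tdTomato lines had been made by transfection and picking of colonies.

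MYC proteins (encoded by *Myc*, *Mycn* and *Mycl*) bind DNA at E-box sequences as pairs with MAX and raise genes for ribosome assembly, nucleotide synthesis and cell growth. The MXD proteins (encoded by *Mxd1*, *Mxd3*, *Mxd4* and *Mxi1*), MNT and MGA compete for MAX and for the same sequences, and mostly repress. In the mouse embryo, cells with less MYC than their neighbors are known to be eliminated by cell competition around gastrulation, and *Mycn* is known to be needed for growth of the nervous system, heart and limb.

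The core sequence that MYC-MAX and MXD-MAX pairs bind, CACGTG, reads the same on both strands and was searched in the RefSeq promoters of the members (GRCm38.p6, from 250 bases before to 50 after the annotated start). Windows of 30 bases around each match are shown because they place the motif of this network next to its own genes; capitals mark CACGTG and each window reads 5′ to 3′ in the direction of the gene.
Max: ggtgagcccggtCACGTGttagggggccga
Mnt: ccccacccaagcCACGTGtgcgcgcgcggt
Mxd4: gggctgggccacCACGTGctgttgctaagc
The *Max* window lies at chr12:76962234-76962263 on the minus strand, with the motif starting 3 bases before the start of the RefSeq table. The *Mnt* window lies at chr11:74830789-74830818 on the plus strand, with its motif 123 bases before the start. The *Mxd4* window lies at chr5:34187912-34187941 on the minus strand, with its motif 219 bases before it. Of 11 promoters listed for 9 members, 3 held the motif, against 2349 of 32851 promoters of the table (7.15%). The promoter entry for *Myc* is missing from the table. The RefSeq starts of these 3 genes differ from the GENCODE starts given next. A match is a stretch of letters and was not tested for binding.

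The members lie in GRCm38 as follows (GENCODE M21). *Myc* is on chr15 at 61985391 to 61990374 (plus strand), *Mycn* on chr12 at 12936093 to 12941914 (minus) and *Mycl* on chr4 at 122995652 to 123002485 (plus). *Max* is on chr12 at 76937269 to 76962201 (minus), *Mnt* on chr11 at 74830920 to 74845725 (plus) and *Mga* on chr2 at 119897228 to 119969581 (plus). *Mxd1* is on chr6 at 86647042 to 86669161 (minus), *Mxd3* on chr13 at 55325168 to 55329823 (minus), *Mxd4* on chr5 at 34173883 to 34187720 (minus) and *Mxi1* on chr19 at 53310518 to 53375810 (plus). Other annotated genes overlap *Max* and *Mxd1* on the same strand, and *Mxd3* (*Prelid1*), *Mxd4* and *Mxi1* on the other strand. Where the strand is the same, reads may be shared.

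Cells that passed the authors' quality filter were used, leaving out doublets and tdTomato- sorted cells in which a tdTomato UMI (unique molecular identifier, a counted transcript molecule) was found. This gave 37841 cells in 87 cell types. The libraries held 360 to 4327 cells and 20682659 to 138613245 UMIs, with a median of 18205 to 57791.5 UMIs and of 0.94% to 1.81% mitochondrial UMIs per cell. Of 37351 distinct barcodes, 488 occurred in more than 1 library. Cell types are the labels that the authors transferred from an atlas of gastrulation, printed as given; of 74 comparisons of markers in 15 types, 71 were higher in the type than in all other cells, the exceptions being *Pax3* in Sclerotome at E8.5 and E9.5 and *Pf4* in EMP at E9.5. *Stat3* itself was at 6.14 to 9.31 CPM (UMIs of a gene per 1000000 UMIs of a library) in the WT libraries and at 1.16 to 2.53 CPM in the null libraries, although 3′ counts do not read the deleted exons themselves. The smallest library was E7.5 null B, and tdTomato was detected in the lowest share of null cells, 72.3%, in E8.5 null B. Between libraries of 1 group the counts differed far beyond sampling noise (chi-square per degree of freedom of 18.1 to 72.2 in 16 pairs), so no library was a second deposit of another. Nothing in the cell table ties a library to a numbered pool; the letters A to D only name libraries. By the study's account fewer embryos than libraries of a genotype were processed at E9.5, so some libraries there appear to share an embryo, n counts libraries, and p-values of tests with E9.5 are then too small. E7.5 embryos were sorted into large and small ones, and which library holds which was not known here. Each UMI stands for 1 transcript whatever its length, so a level in CPM needs no division by length to be set beside that of another gene. In a sum over a whole library, fewer cells of a type and less RNA per cell cannot be told apart.

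*Myc*, the founding member of the family, measured 23.0 and 20.01 CPM in E7.5 WT libraries A and B, 23.3 and 25.3 CPM a day later, and 14.5, 15.5, 16.2 and 15.6 CPM in E9.5 WT libraries A to D. The null libraries held 15.3 and 30.1 CPM, 20.5 and 25.9 CPM, and 12.2, 14.7, 14.2 and 14.2 CPM at the same stages. In both genotypes every E9.5 library was below every E8.5 library, and null and WT overlapped at each stage. *Mycn*, the paralog best known from neural and limb growth, was the most abundant MYC gene, at 43.3 and 52.6 CPM, then 46.4 and 45.7, then 41.3, 45.0, 49.9 and 41.6 in WT libraries. Its null libraries held 46.7 and 56.0, 41.6 and 55.2, and 41.2, 47.8, 46.7 and 48.3 CPM, and neither stages nor genotypes separated. *Mycl*, the third MYC gene, measured 9.09 and 11.6 CPM in E7.5 WT and 13.5 and 11.99 CPM in E8.5 WT, and rose to 30.4, 35.9, 29.8 and 18.1 CPM in WT libraries at E9.5. The null values were 8.80 and 13.5, 13.1 and 13.3, and 26.7, 36.1, 29.3 and 24.6 CPM, so that each E9.5 library of either genotype was above each earlier one.

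*Max*, the obligate partner, stayed within 35.2 and 53.6 CPM in all 16 libraries, with 47.6 and 43.1, 38.5 and 41.5, and 38.8, 36.5, 38.8 and 40.5 CPM in WT. The null libraries held 39.9 and 53.6, 40.8 and 45.6, and 35.2, 40.5, 39.8 and 40.5 CPM. *Mga*, the large MAX partner that also carries a T-box domain, was the most abundant of the 10, at 93.6 and 83.7 CPM in E7.5 WT libraries, 55.0 and 58.9 a day later, and 61.9, 61.2, 66.1 and 62.2 at E9.5. In these sums its null libraries were close, at 90.1 and 79.8, 54.9 and 58.9, and 64.4, 63.4, 62.2 and 61.3 CPM. Averaged with equal weight over 20 types that each E8.5 library held, *Mga* was at 66.9 and 67.6 CPM in WT and at 60.5 and 57.9 CPM in null libraries. Such averages overlapped at E7.5 and E9.5, and they carry no test. Every E7.5 library thus held more *Mga* than every later one. *Mnt*, a broadly present repressor that pairs with MAX, was at 8.502 and 8.05, 8.16 and 8.08, and 11.96, 13.3, 12.7 and 10.9 CPM in WT, and at 7.64 and 8.03, 8.03 and 7.72, and 12.6, 11.3, 11.1 and 10.2 CPM in null libraries.

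The 4 MXD genes, whose products pair with MAX and repress, were higher in every E9.5 library than in every earlier library. *Mxd4* was the most abundant of them, at 14.98 and 12.9 CPM in E7.5 WT, 21.6 and 20.7 in E8.5 WT, and 42.0, 36.1, 46.5 and 39.3 in E9.5 WT. Its null libraries held 13.6 and 12.04, 21.5 and 22.6, and 41.7, 32.8, 41.4 and 36.8 CPM. *Mxi1*, also known as *Mxd2*, was at 14.7 and 14.5, 18.6 and 15.98, and 33.4, 27.6, 31.0 and 26.0 CPM in WT. In null libraries *Mxi1* was at 19.2 and 18.2, 22.0 and 18.0, and 35.4, 30.6, 34.0 and 30.8 CPM, with both E7.5 null libraries above both WT libraries. *Mxd1*, which is known to rise as cells differentiate, was at 3.31 and 3.21, 4.82 and 4.19, and 8.01, 6.61, 8.04 and 6.93 CPM in WT, and at 3.498 and 3.48, 4.81 and 3.74, and 8.48, 6.30, 7.10 and 7.48 CPM in null libraries. *Mxd3*, the MXD gene known to be present in dividing cells, was at 3.98 and 4.37, 4.11 and 3.36, and 10.2, 10.7, 9.74 and 7.80 CPM in WT. Its null libraries held 3.01 and 2.76, 3.604 and 3.05, and 9.31, 7.94, 8.48 and 7.35 CPM, with both E7.5 null libraries below both WT libraries. The null libraries also lay above the WT libraries for *Mxd1* at E7.5, and below them for *Mnt* at E7.5 and E8.5. With 2 libraries of each genotype such a separation is no test, and its share over all genes was not computed.

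**Figure D1:**
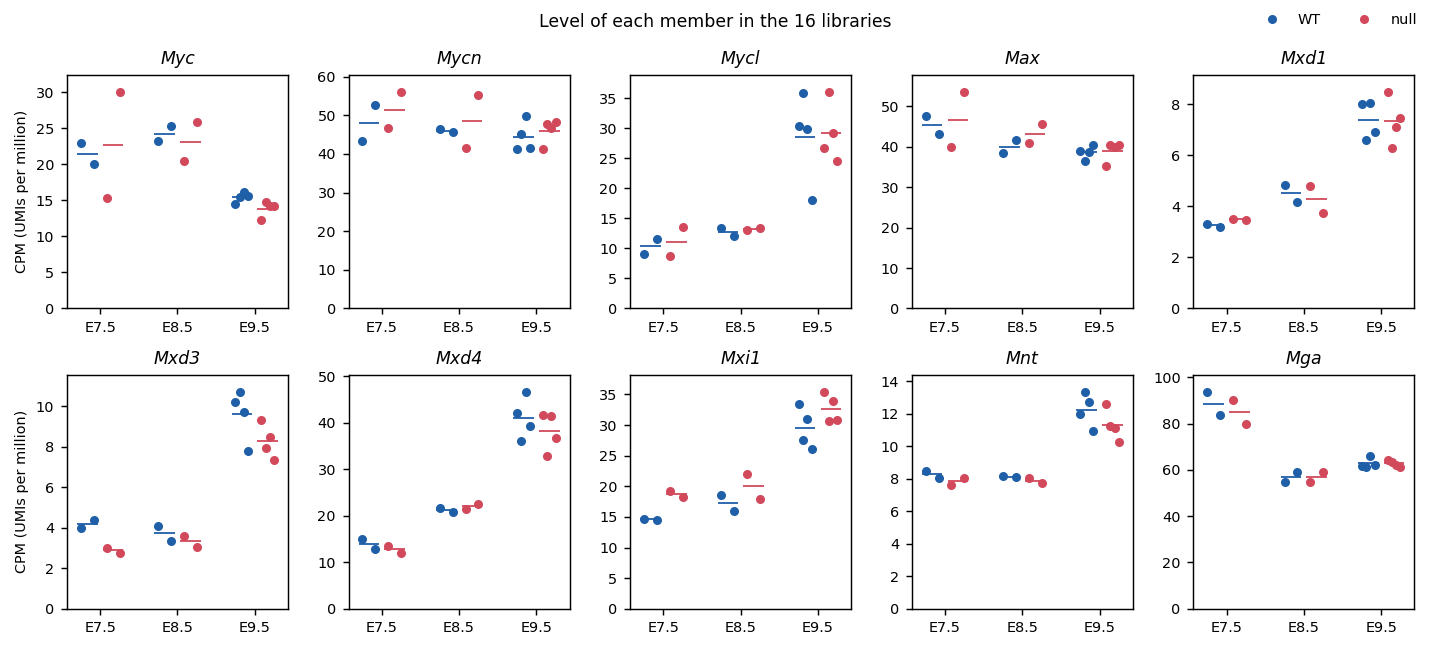
The level of each member (y axis, UMIs per 1000000 UMIs of the library) is plotted by stage (x axis); each point is 1 library of WT (blue) or *Stat3* null (red) cells and each bar the mean of a group. *Myc* is lower at E9.5 than at E8.5 in every library, *Mycl*, *Mxd3*, *Mxd4* and *Mxi1* are higher, and null and WT points overlap at E9.5 in each panel.

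Between WT cell types the members differed far more than between libraries. The values that follow are means ± SD over the WT libraries with more than 15 cells of a type (n = 2 at E7.5 and E8.5 and n = 4 at E9.5 unless stated); types with 1 library have no SD. They are a description, because the labels were made from the same cells' expression. Over 18 types at E7.5, *Myc* was highest in Blood progenitors (76.7 ± 13 CPM), followed by Haematoendothelial progenitors (45.3, 1 library) and Lateral plate mesoderm (38.2 ± 2.6), and lowest in Ectoderm (5.36 ± 0.96), Epiblast (5.08, 1 library) and Caudal epiblast (4.28 ± 2.4). The highest type was 7.65 times the median type, the widest ratio of any member and stage. Over 59 types at E8.5 the order was led by Allantois endothelium (59.7, 1 library), Limb mesoderm (48.7 ± 5.1) and Blood progenitors (48.1, 1 library). *Myc* was lowest at E8.5 in Dorsal midbrain neurons (4.25, from 2 UMIs), Hindgut (2.83, 1 UMI) and Cardiomyocytes SHF 2 (2.13, 1 UMI), whose order these counts cannot resolve. Over 54 types at E9.5 it was highest in EMP (49.9 ± 6.8) and Venous endothelium (40.2 ± 14, n = 3), which did not differ beyond their spread, and in Foregut (38.9, 1 library). At the low end stood Epidermis (3.54 ± 1.7), Hindbrain floor plate (3.47 ± 0.67) and Otic neural progenitors, with 0 UMIs in 18 cells, which allows up to 5.70 CPM.

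*Mycn* was highest in other types. At E7.5 these were Paraxial mesoderm (83.8 ± 11), Nascent mesoderm (73.3, 1 library) and Epiblast (73.0, 1 library), and the lowest were ExE endoderm (19.2, 1 library), Visceral endoderm (12.9 ± 3.6) and Gut tube (10.2 ± 1.4). At E8.5 it was highest in Migratory neural crest (95.9 ± 14), Branchial arch neural crest (95.7 ± 5.9) and Spinal cord progenitors (86.5 ± 0.55). Migratory neural crest overlapped with each of the others, while Branchial arch neural crest and Spinal cord progenitors did not overlap. The lowest were Epidermis (8.01, 1 library), YS endothelium (6.73, 1 library) and Erythroid (3.69 ± 1.9). At E9.5 Spinal cord progenitors (79.0 ± 23, n = 3), Somitic mesoderm (77.1 ± 1.6, n = 2) and Branchial arch neural crest (70.6 ± 19) led, within their spread of each other. YS mesothelium (14.5 ± 1.6, n = 3), EMP (12.5 ± 8.0) and Erythroid (2.74 ± 2.2) closed the order.

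*Mycl* was low in most types at E7.5, with Caudal epiblast (20.3 ± 6.6), Nascent mesoderm (19.7, 1 library) and Primitive Streak (14.9, 1 library) at the top. Haematoendothelial progenitors (3.75, 1 library), Blood progenitors (2.38 ± 1.8) and ExE endoderm (0 UMIs in 32 cells, which allows up to 3.85 CPM) were lowest. At E8.5 it was highest in neural types: Dorsal midbrain neurons (74.3, 1 library), Midbrain/Hindbrain boundary (55.0 ± 7.8) and Ventral hindbrain progenitors (47.9 ± 5.7). No UMI was found in 4 types of that stage, Allantois endothelium, Blood progenitors, Cardiomyocytes SHF 2 and YS endothelium, of 1 library each. At E9.5 Dorsal midbrain neurons held 81.3, 100.3, 87.4 and 62.0 CPM in libraries A to D, followed by Ventral hindbrain progenitors (70.6 ± 14) and Hindbrain neural progenitors (63.3 ± 5.9). The lowest were Erythroid (1.80 ± 0.73), Megakaryocyte progenitors (0.49 ± 0.69, n = 2, from 1 UMI) and YS endothelium (0 UMIs, 1 library).

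As a share of the UMIs of the 3 MYC genes, *Mycn* led in 14 of 18 WT types at E7.5, 48 of 59 at E8.5 and 40 of 54 at E9.5. *Myc* led in 3, 7 and 4 types and *Mycl* in 1, 4 and 10, where the 7 types of E8.5 include Frontonasal mesenchyme, in which *Myc* and *Mycn* tied at 47.9%. *Myc* made up 73.2% of these UMIs in Blood progenitors at E7.5, and in Erythroid 89.7% at E8.5 and 84.1% at E9.5. *Mycn* made up 85.1% and 81.5% in Megakaryocyte progenitors at E8.5 and E9.5 and 56.6% in Chorioallantoic-derived erythroid progenitors at E8.5. In EMP the share of *Myc* was 54.4% at E8.5 and 74.8% at E9.5, and in Lateral plate mesoderm it was 47.5% at E7.5 and 19.3% at E8.5, where *Mycn* went from 42.4% to 77.6%. *Mycl* made up 81.4% and then 77.7% in Dorsal midbrain neurons, and 31.7% and then 67.4% in Thyroid primordium, at E8.5 and E9.5. Across types the correlation of *Myc* with *Mycn* (log2(CPM + 1), Pearson) was -0.30, 0.15 and 0.08 at the 3 stages over 18, 59 and 54 types, a description with no test, since types of a library share its depth. *Myc* with *Max* gave 0.81, 0.69 and 0.29.

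**Figure D2:**
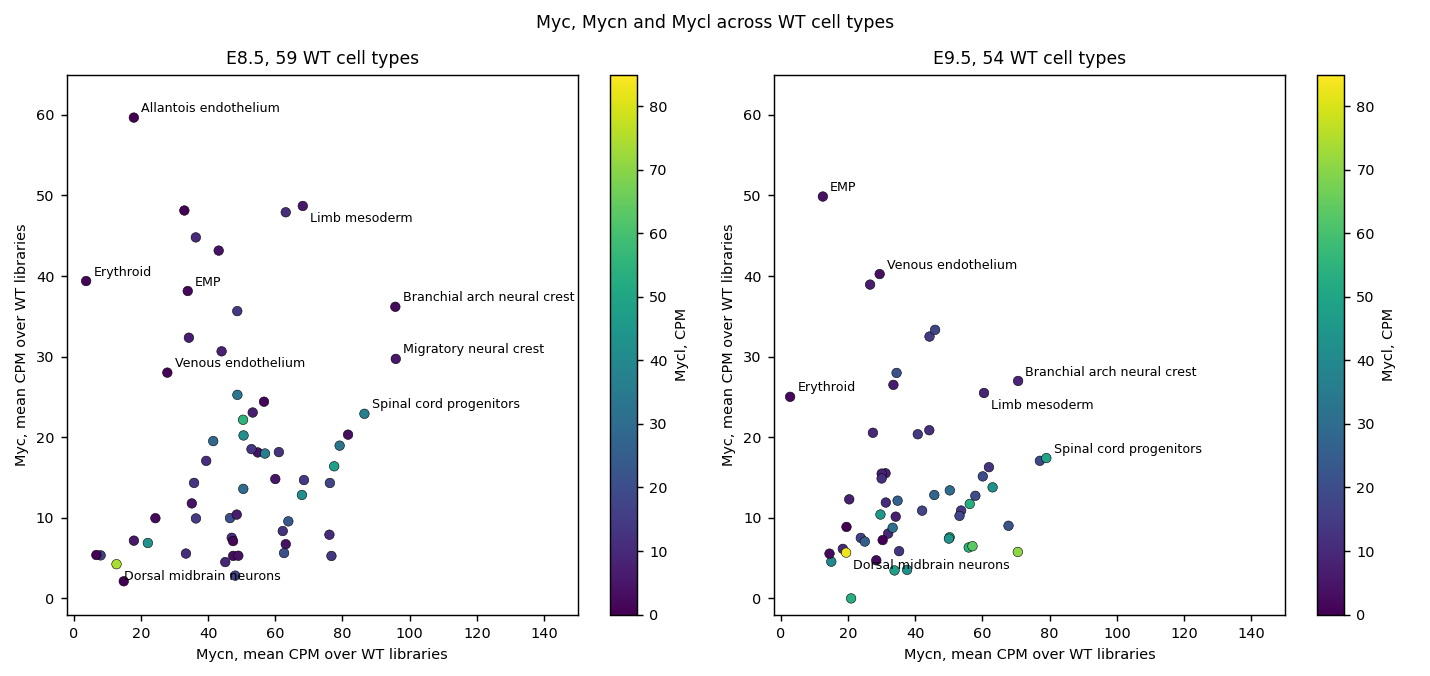
Each point is 1 WT cell type with more than 15 cells in a library, at E8.5 (left, 59 types) or E9.5 (right, 54 types); the x axis gives *Mycn* and the y axis *Myc* (mean CPM over WT libraries), and the color gives *Mycl* in CPM. Allantois endothelium, followed by Limb mesoderm, lies highest on the *Myc* axis at E8.5, and EMP at E9.5. Erythroid lies farthest left in both panels, with the least *Mycn*. The labeled neural crest and spinal cord types lie far right, and Dorsal midbrain neurons lie near the origin with the most *Mycl*.

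The highest type of *Max* was at most 2.28 times the median type. *Max* was highest at E7.5 in Blood progenitors (72.4 ± 1.7), Allantois endothelium (71.5, 1 library) and Haematoendothelial progenitors (67.1, 1 library), and lowest in Caudal epiblast, Gut tube and Visceral endoderm (29.8 ± 1.7). At E8.5 Allantois endothelium (59.7, 1 library), Blood progenitors (58.3, 1 library) and Branchial arch neural crest (56.2 ± 1.3) led, and Embryo proper mesothelium, Hindgut and Epidermis (16.03, 1 library) were lowest. At E9.5 it was highest in Parietal endoderm (85.2, 1 library), Megakaryocyte progenitors (73.3 ± 0.38, n = 2) and EMP (60.2 ± 2.9), and lowest in Placodal ectoderm, Otic neural progenitors and YS endothelium (14.2, 1 library). Blood progenitors at E7.5 and E8.5, Haematoendothelial progenitors at E7.5 and EMP at E9.5 were thus among the 3 highest types for both *Myc* and *Max*. Megakaryocyte progenitors at E9.5 were high in *Max*, while *Mycn* rather than *Myc* made up 81.5% of their MYC UMIs.

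Among the MXD genes, *Mxd4* spanned the widest range in CPM. At E7.5 it was highest in Visceral endoderm (51.7 ± 9.1), ahead of Cardiopharyngeal progenitors SHF (25.1, 1 library) and Intermediate mesoderm (24.3 ± 2.6), and lowest in Haematoendothelial progenitors, Allantois endothelium and Blood progenitors (1.43 ± 2.0). At E8.5 Midgut (104, 1 library), Thyroid primordium (83.6 ± 28) and Allantois (62.5 ± 15) led, with Blood progenitors, Erythroid (4.70 ± 0.59) and Allantois endothelium (2.98, 1 library) lowest. At E9.5 Parietal endoderm (130, 1 library), Thyroid primordium (127 ± 33, n = 3) and Allantois (100.4 ± 15, n = 3) led, and Dorsal spinal cord progenitors (10.6 ± 2.1), NMPs (7.88, 1 library) and Erythroid (7.37 ± 1.1) were lowest. Blood progenitors and Erythroid were thus among the lowest types for *Mxd4*, while EMP was at 29.4 ± 5.5 and 20.5 ± 4.1 CPM at E8.5 and E9.5.

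*Mxi1* was highest at E7.5 in Gut tube (20.9 ± 6.6), Caudal epiblast (20.9 ± 5.7) and Primitive Streak (20.4, 1 library), and lowest in ExE endoderm, ExE ectoderm (5.94 ± 2.2) and Allantois endothelium (4.21, 1 library). Thyroid primordium (46.7 ± 16), Cardiomyocytes SHF 1 (35.7, 1 library) and Dorsal midbrain neurons (34.0, 1 library) led at E8.5; Allantois endothelium (5.97, 1 library) was low, and no UMI was found in Epidermis or Hindbrain neural progenitors of 1 library each. At E9.5 Otic neural progenitors (76.0, 1 library), Dorsal midbrain neurons (64.9, 52.1, 59.5 and 44.6 in A to D) and Thyroid primordium (53.3 ± 8.2, n = 3) led, with Venous endothelium (10.6 ± 3.2, n = 3), EMP (10.2 ± 2.9) and YS mesothelium (8.87 ± 0.49, n = 3) lowest. Dorsal midbrain neurons, the type with the most *Mycl*, were thus also among the highest for *Mxi1*, and across types the 2 genes correlated at 0.57, 0.14 and 0.57.

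*Mxd1* was highest in Megakaryocyte progenitors at both later stages, with 19.0 CPM at E8.5 (1 library) and 47.0 ± 18 CPM at E9.5 (n = 2), where it was followed by Dorsal midbrain neurons (16.1 ± 3.5) and Pharyngeal mesoderm (13.7 ± 5.6). At E8.5 Allantois (9.89 ± 1.6) and Embryo proper mesothelium (9.72 ± 4.5) came next, and at E7.5 Mesenchyme (6.75 ± 0.63), ExE endoderm (6.41, 1 library) and Visceral endoderm (5.16 ± 3.6) were highest. The lowest were Primitive Streak, Nascent mesoderm and ExE ectoderm (0.93 ± 0.079) at E7.5, YS endothelium, EMP and Ventral forebrain progenitors (0 UMIs, 1 library) at E8.5, and Frontonasal mesenchyme, Somitic mesoderm and Hindgut (1.47, from 1 UMI) at E9.5. *Mxd3* was highest at E7.5 in Intermediate mesoderm (8.99 ± 2.9), Caudal epiblast (6.87 ± 0.25) and Non-neural ectoderm (6.32 ± 4.8). Dorsal midbrain neurons (12.7, from 6 UMIs), YS mesothelium (9.89 ± 0.59) and Allantois (9.29 ± 5.5) led at E8.5, and Anterior somitic tissues (25.3, 1 library), Cardiopharyngeal progenitors (20.5, 1 library) and Dorsal hindbrain progenitors (19.7 ± 3.8) at E9.5. It was lowest in Visceral endoderm, Blood progenitors and Allantois endothelium at E7.5, in 7 types at E8.5 with 0 UMIs, among them Midgut, Non-neural ectoderm and Otic placode, and in Placodal ectoderm, EMP (1.40 ± 0.82) and Parietal endoderm (0 UMIs, 1 library) at E9.5. With so few UMIs the order of neighboring types of *Mxd1* and *Mxd3* was not resolved.

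*Mnt* was highest in Cardiopharyngeal progenitors SHF (10.8, 1 library), Allantois endothelium (10.5, 1 library) and Blood progenitors (9.87 ± 4.0) at E7.5, in Thyroid primordium (22.5 ± 1.6), Cardiomyocytes FHF 1 (22.3, 1 library) and Epicardium (16.5, 1 library) at E8.5, and in Parietal endoderm (21.3, 1 library), Pharyngeal mesoderm (18.6 ± 4.5) and Thyroid primordium (17.7 ± 2.6, n = 3) at E9.5. The E7.5 and E8.5 leaders changed when each cell was thinned to 10000 UMIs, and the order of its types was not resolved at E7.5. The lowest types were Visceral endoderm, Gut tube and Haematoendothelial progenitors (4.12, 1 library), then Erythroid (3.78 ± 0.25), Otic placode and Chorioallantoic-derived erythroid progenitors (0 UMIs in 47 cells), then Hindgut, Otic neural progenitors and Erythroid (3.97 ± 1.3). *Mga* was high nearly everywhere, led by Non-neural ectoderm (110 ± 27), Ectoderm (104 ± 22) and Paraxial mesoderm (99.7 ± 7.8) at E7.5, by Thyroid primordium (117 ± 1.4), Hindbrain floor plate (104 ± 4.8) and Cardiomyocytes SHF 1 (103, 1 library) at E8.5, and by Thyroid primordium (96.5 ± 15, n = 3), Anterior cardiopharyngeal progenitors (90.4, 1 library) and Cardiopharyngeal progenitors FHF (87.1 ± 7.6) at E9.5. It was lowest in ExE ectoderm, Visceral endoderm and ExE endoderm (37.2, 1 library), then in Chorioallantoic-derived erythroid progenitors, Cardiomyocytes SHF 2 and Erythroid (30.1 ± 8.6), then in Midbrain/Hindbrain boundary, Otic neural progenitors and Erythroid (25.1 ± 3.5). Erythroid cells were therefore among the lowest types for *Mycn*, *Mxd4*, *Mnt* and *Mga* at both later stages.

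The genes whose level over 132 WT points (a stage and a type, at E8.5 and E9.5, with more than 15 cells summed over WT libraries rather than in 1 library) was most like that of *Myc* were *Dnttip2* (Pearson r of log2(CPM + 1) 0.74), *Ncl* (0.71), *Ddx21* (0.71), *Ppid* (0.71) and *Mybbp1a* (0.71), out of 5685 genes with a mean of at least 20 CPM. For *Mycn* they were *Rnf219* (0.72), *Mtap* (0.70), *Clns1a* (0.70), *Trim28* (0.70) and *Ssb* (0.69), out of 5684. Points of a stage share libraries, and these values carry no test.

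The comparison of null with WT cells asks whether the network differs in cells that lack *Stat3* when they grow among WT cells. In the sums over whole libraries none of the 10 members was called at any of the 3 stages (edgeR quasi-likelihood test, adjusted p under 0.05), where 5.34%, 0.212% and 1.35% of all genes were called. At an unadjusted p under 0.05 there were 2, 0 and 0 members, where 2829, 819 and 1412 of 15567 genes passed. DESeq2 called 1, 0 and 0 members, and the share of all genes that it called was not computed. The member that came closest was *Mxi1* at E7.5, higher in null cells by 0.41 on the log2 scale (SE 0.13, 95% interval 0.13 to 0.68, n = 2 and 2, edgeR adjusted p = 0.086), which DESeq2 called (adjusted p = 0.036). Averaged with equal weight over the 7 cell types that both genotypes shared, the difference was 0.15, and it was 0.27 (edgeR adjusted p = 0.72) without extra-embryonic and blood labels. *Mxd3* at E7.5 was lower by 0.49 on the log2 scale (-0.49, SE 0.18, interval -0.86 to -0.11, edgeR adjusted p = 0.14), and by the average over the same 7 types the value was -0.61.

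For the MYC genes the differences over whole libraries are given with their 95% intervals. The intervals of E9.5 are too narrow if libraries there share an embryo. None of them bounds a difference within a cell type. *Myc* differed by 0.10 (-0.40 to 0.60) at E7.5, -0.10 (-0.58 to 0.39) at E8.5 and -0.16 (-0.50 to 0.18) at E9.5. For *Mycn* the E9.5 value was 0.05 (-0.17 to 0.27), and for *Mycl* 0.04 (-0.39 to 0.47). The partner *Max* was at 0.01 (-0.17 to 0.19), and *Mga* was the tightest of all, at 0.00 (-0.10 to 0.09). Among the repressors at E9.5 the values were -0.01 for *Mxd1*, -0.22 (-0.46 to 0.02) for *Mxd3*, -0.11 (-0.27 to 0.06) for *Mxd4*, 0.15 (-0.04 to 0.33) for *Mxi1* and -0.11 (-0.27 to 0.04) for *Mnt*. The change of the genotype effect from E8.5 to E9.5 was called for 0 of the 10 members by edgeR, with 0.0321% of all genes called. At an unadjusted p under 0.05 there were 0 members, where 390 of 15567 genes passed. DESeq2 called 0 members, and its share over all genes was not computed.

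Within cell types 0 member and type pairs passed the test with a log2 fold change over 1, of 61 pairs in 7 types at E7.5, 164 in 20 types at E8.5 and 322 in 37 types at E9.5. Of all gene and type pairs 0.186%, 0.0609% and 0.12% were called. At an unadjusted p under 0.05 there were 1, 13 and 21 pairs of the members (1.64%, 7.93% and 6.52%), against 4.06%, 4.32% and 6.26% of all pairs. DESeq2 called 0 member pairs with that fold change at each stage, and its share over all pairs was not computed. Without the fold threshold 1 pair was called, *Mxd4* in Sclerotome, the mesenchyme of the ventral somite, at E9.5. With 322 member pairs tested at that stage, 1 call is close to the share of all pairs called by that rule (0.271%). In Sclerotome at E9.5 *Mxd4* was at 63.2, 56.9, 72.2 and 66.4 CPM in the WT libraries and at 56.5, 40.6, 46.5 and 41.0 CPM in the null libraries. All 4 null values were below all 4 WT values, by the least margin between null A and WT B. The log2 fold change was -0.48 (SE 0.10, 95% interval -0.70 to -0.27, n = 4 and 4 libraries, which may share embryos so that the p-values are too small, edgeR adjusted p = 0.028; DESeq2 adjusted p = 0.0059). Leaving out WT A, C or D, or null B, C or D, ended the call (edgeR adjusted p of 0.055 to 0.13), and it held without WT B (0.020) or null A (0.0050). The E8.5 value of *Mxd4* in Erythroid, singled out after its size was seen, came from 5.12 and 4.28 CPM in WT and 2.16 and 2.19 in null libraries and did not pass (log2 fold change -1.15, edgeR adjusted p = 0.33).

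The signs of the uncalled differences are given as counts. *Mxi1* was above 0 in 5 of 7, 15 of 20 and 30 of 37 types at the 3 stages (median log2 fold change 0.21, 0.18 and 0.10). *Mxd3* was below 0 in 4 of 4, 7 of 10 and 17 of 23 types (medians -0.63, -0.28 and -0.23). *Myc* was below 0 in 4 of 7, 11 of 15 and 20 of 27 types, and *Mxd4* in 4 of 6, 14 of 20 and 25 of 36. *Mga* was below 0 in 5 of 7, 16 of 20 and 20 of 37 types, *Mycl* in 5 of 6, 8 of 15 and 19 of 33, *Mxd1* in 2 of 3, 5 of 8 and 13 of 22, and *Mnt* in 3 of 7, 9 of 17 and 21 of 33. *Max* was above 0 in 5 of 7, 15 of 20 and 19 of 37 types, and *Mycn* in 3 of 7, 13 of 19 and 17 of 37. Over all genes 32742 of 65112, 85025 of 169046 and 161464 of 324583 pairs were above 0. Types of a stage share their libraries, so these counts are no test. Of blood types tested between genotypes, Blood progenitors at E7.5 held *Myc* at 85.9 and 67.5 CPM in WT and 48.8 and 104 in null libraries. Erythroid at E8.5 held *Myc* at 35.5 and 43.3 CPM in WT and 35.4 and 50.1 in null libraries. *Myc* in EMP at E9.5 held 50.6, 59.1, 44.4 and 45.4 CPM in WT and 37.3 and 44.4 CPM in the 2 null libraries with enough cells (log2 fold change -0.30, edgeR adjusted p = 0.76). The genotypes overlapped in Blood progenitors at E7.5 and Erythroid at E8.5, and in EMP the higher null library was level with the lowest WT library. Erythroid was not compared between genotypes at E9.5, where too few null libraries held more than 15 of these cells. That is the stage at which the study reports null cells to be underrepresented in the erythroid lineage.

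**Figure D3:**
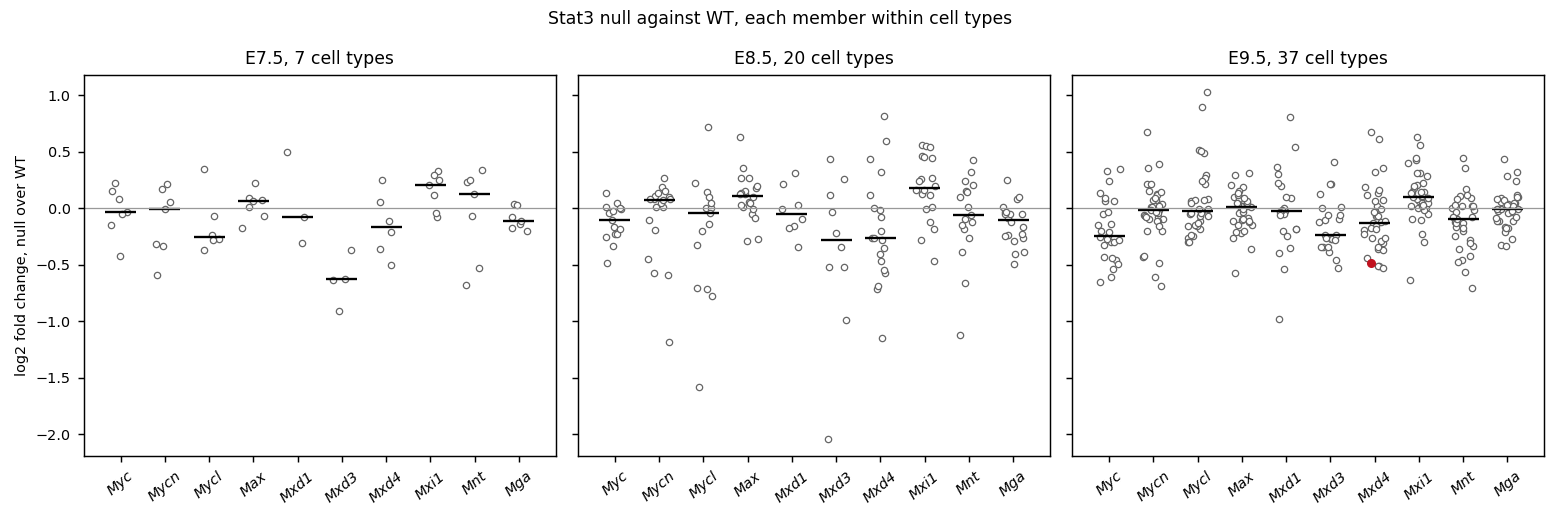
For each member (x axis) the log2 fold change of null over WT (y axis) is plotted, 1 point per cell type, at E7.5 (7 types), E8.5 (20) and E9.5 (37); black bars are medians and a filled red point passed edgeR's test at adjusted p under 0.05. The only red point is *Mxd4* in Sclerotome at E9.5, at -0.48.

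The comparison of stages follows the network through organogenesis in host cells. From E7.5 to E8.5, 3 members rose and 1 fell in whole WT libraries, where 22.7% of all genes were called higher and 22% lower. *Mxd1* rose by 0.64 (SE 0.16, edgeR adjusted p = 0.0053), *Mxd4* by 0.78 (SE 0.12, adjusted p = 1.6e-04) and *Mxi1* by 0.42 (SE 0.13, adjusted p = 0.015) on the log2 scale. *Mga* fell by 0.47 (SE 0.06, adjusted p = 6.5e-05). *Myc* (0.35, interval -0.14 to 0.84), *Mycn* (0.11, -0.20 to 0.42), *Mycl* (0.45, -0.19 to 1.10) and *Max* (-0.01, -0.27 to 0.25) did not pass. Without E8.5 WT A the calls of *Mxd4* and *Mga* remained, and scaled by all UMIs *Mxi1* was at 0.25 (adjusted p = 0.12). In null libraries *Mxd4* rose by 0.88 and *Mga* fell by 0.48, and *Mxd1* was at 0.41 (adjusted p = 0.053).

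From E8.5 to E9.5, 6 members rose and 2 fell in whole WT libraries, where 22.7% of all genes were higher and 17.7% lower; this contrast shares the E8.5 WT libraries with the one before. All of the MXD genes and *Mnt* rose: *Mxd3* by 1.10 (SE 0.15, edgeR adjusted p = 8.6e-05), *Mxd4* by 0.69 (SE 0.10, 1.6e-04), *Mxi1* by 0.51 (SE 0.11, 0.0021), *Mxd1* by 0.45 (SE 0.13, 0.015) and *Mnt* by 0.33 (SE 0.09, 0.012). Among the MYC genes *Mycl* rose by 0.90 (SE 0.26, adjusted p = 0.015) and *Myc* fell by 0.91 (SE 0.19, adjusted p = 0.0020), while *Mycn* was at -0.31 (SE 0.12, adjusted p = 0.056). *Max* fell by 0.31 (SE 0.10, adjusted p = 0.027), and *Mga* was at -0.12 (adjusted p = 0.093). In the null libraries, which share embryos but no library with the WT contrast, the called members had the same directions: *Myc* fell by 0.98 and *Max* by 0.39, and *Mycl* rose by 0.90, *Mxd1* by 0.52, *Mxd3* by 1.06, *Mxd4* by 0.55, *Mxi1* by 0.46 and *Mnt* by 0.28.

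The scale decides the sign of the smallest of these. With counts scaled by all UMIs the median of all genes rose by 0.32 from E8.5 to E9.5 in WT libraries, against 0.06 in the normalization used above (TMM, trimmed mean of M values). On that scale *Max* was at -0.05, *Mycn* at -0.05 and *Mga* at 0.14, none of them called, whereas *Myc* still fell, by 0.65 (edgeR adjusted p = 0.0090), and *Mxd3* (1.36), *Mycl* (1.16), *Mxd4* (0.96), *Mxi1* (0.77), *Mxd1* (0.72) and *Mnt* (0.59) rose. Without E8.5 WT A the calls of *Mycl*, *Max* and *Mnt* were lost, and without E8.5 WT B, the library with the fewest UMIs per cell, only those of *Myc*, *Mxd3* and *Mxd4* remained. Averaged with equal weight over 18 types that each WT library of both stages held, the differences in log2 CPM were -0.46 for *Myc*, -0.32 for *Mycn*, 0.60 for *Mycl*, -0.06 for *Max*, 0.54 for *Mxd1*, 1.04 for *Mxd3*, 0.60 for *Mxd4*, 0.53 for *Mxi1*, 0.51 for *Mnt* and -0.01 for *Mga*.

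As a ratio, the UMIs of *Mxd1*, *Mxd3*, *Mxd4* and *Mxi1* together per UMI of *Myc*, *Mycn* and *Mycl* measured 0.490 and 0.415 for E7.5 WT, 0.591 and 0.533 for E8.5 WT, and 1.09, 0.840, 0.994 and 1.06 for E9.5 WT. The null libraries gave 0.555 and 0.367, 0.691 and 0.502, and 1.18, 0.788, 1.01 and 0.946. Every E9.5 library was above every earlier library, and the genotypes overlapped at each stage. Being a ratio within a library, it does not depend on the scaling. Over WT types it ran from 0.177 in Blood progenitors to 2.13 in Visceral endoderm at E7.5, from 0.189 in Hindbrain neural progenitors (37 MYC UMIs) to 6 in YS endothelium (9 MYC UMIs) at E8.5, and from 0.246 in NMPs (61 MYC UMIs) to 4.82 in YS mesothelium at E9.5.

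**Figure D4:**
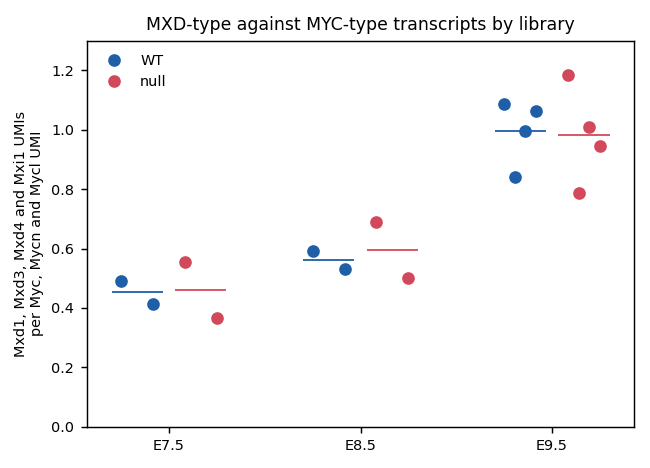
The summed UMIs of *Mxd1*, *Mxd3*, *Mxd4* and *Mxi1* per UMI of *Myc*, *Mycn* and *Mycl* (y axis) are plotted by stage (x axis), 1 point per WT (blue) or null (red) library, with bars at group means. The E9.5 libraries lie between 0.788 and 1.18, above all E7.5 and E8.5 libraries, which lie between 0.367 and 0.691.

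Cell types change in number between stages, so the same contrast was fitted within types, for 31 WT types with at least 2 libraries at E8.5 and at E9.5. Over all genes 4.48% of gene and type pairs were higher and 5.16% lower at E9.5; of the members' pairs 23 were higher and 25 lower. *Myc* was called lower in 9 of 25 types tested and *Mycn* in 10 of 30, with medians of -0.66 and -0.42 over all types tested, and neither was called higher in any. *Mycl* was called higher in 5 of 24 types (median 0.51), *Mxd3* in 7 of 18 (0.91), *Mxd4* in 6 of 31 (0.52), *Mxi1* in 4 of 30 (0.41) and *Mxd1* in 1 of 18 (0.45). *Max* was called lower in 4 of 31 (median -0.12), *Mga* in 2 of 31 (-0.10) and *Mnt* in 0 of 26 (0.23). Without E8.5 WT B, 10 pairs were called higher and 11 lower, with the lone E8.5 library assumed to vary like those of E9.5. With counts scaled by all UMIs there were 38 and 14: *Mycn* was then called lower in 4 of 30 types and *Myc* in 7 of 25, and *Mxi1* was called higher in 10 of 30, *Mxd3* in 9 of 18, *Mxd4* in 8 of 31, *Mycl* in 7 of 24 and *Mxd1* in 3 of 18. On that scale the median gene of a type was at 0.14 (median over the 31 types), against 0.01 with TMM. The share of all pairs called was not computed on that scale.

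Among its called types *Myc* fell most in Ventral hindbrain progenitors (-1.70 on the log2 scale with an SE of 0.25, adjusted p = 2.8e-05 by edgeR), from 14.3 and 18.5 CPM in the E8.5 WT libraries to 4.71, 4.39, 7.96 and 6.01 in those of E9.5. The stages did not overlap there. In Midbrain/Hindbrain boundary (-1.68) it went from 23.0 and 21.4 CPM to 6.88, 4.19 and 11.7 in libraries A, B and D. In Limb mesoderm (-1.09, adjusted p = 9.9e-05), where *Myc* was among the highest of all types at E8.5, it went from 45.1 and 52.3 CPM to 23.5, 27.8, 27.97 and 22.6. The other calls of *Myc* were in Migratory neural crest (-1.03), Dorsal spinal cord progenitors (-0.81), Dermomyotome (-0.73), Optic vesicle (-0.70), Branchial arch neural crest (-0.58) and Erythroid (-0.44). Among its called types *Mycn* fell most in Pharyngeal endoderm (-1.33, adjusted p = 1.3e-05), from 81.8 and 70.4 CPM to 26.0, 33.0 and 40.8 in libraries A, B and D. In Cranial mesoderm (-1.18, adjusted p = 3.3e-05) it went from 46.1 and 60.5 CPM to 24.3, 33.2, 27.7 and 24.4. It was also called in Allantois (-1.07), Pharyngeal mesoderm (-1.06), YS mesothelium (-0.86), Migratory neural crest (-0.79), Dorsal spinal cord progenitors (-0.63), Dorsal hindbrain progenitors (-0.47), Optic vesicle (-0.40) and Ventral hindbrain progenitors (-0.35). Calls of both *Myc* and *Mycn* were made in Dorsal spinal cord progenitors, Migratory neural crest, Optic vesicle and Ventral hindbrain progenitors. In EMP *Mycn* was at 32.2 and 35.7 CPM at E8.5 and at 7.05, 7.10, 11.8 and 24.0 at E9.5, a difference that was not called (-1.50, adjusted p = 0.21).

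*Mycl* was called higher in 5 types. In Branchial arch neural crest (1.94) it went from 1.72 and 2.46 CPM at E8.5 to 9.20, 8.95, 10.3 and 6.73 at E9.5. In Pharyngeal endoderm (1.37), the called type with the largest fall of *Mycn*, it went from 12.1 and 9.02 CPM to 32.5, 37.5 and 23.7. The other calls were in Migratory neural crest (1.18), Optic vesicle (0.90) and Dorsal spinal cord progenitors (0.54), each of them a type in which *Myc* and *Mycn* were called lower. In Optic vesicle its level went from 14.4 and 11.9 CPM to 28.9, 28.9, 30.4 and 22.6. *Max* was called lower in Branchial arch neural crest (-0.59, from 55.3 and 57.1 CPM to 38.5, 40.1, 40.6 and 48.2), Dorsal spinal cord progenitors (-0.52), Ventral hindbrain progenitors (-0.43) and Optic vesicle (-0.35), and with counts scaled by all UMIs 2 of these calls were made.

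Of the repressors, *Mxd3* rose most, among called types, in Sclerotome (2.55, edgeR adjusted p = 0.0038), from 2.28 CPM (5 UMIs) and 0 (0 UMIs in 63 cells) to 10.1, 12.5, 8.92 and 9.36. It also rose in Optic vesicle (1.71, from 3.68 and 2.16 CPM to 14.0, 9.20, 8.97 and 10.8), Erythroid (1.51), Branchial arch neural crest (1.44), Dorsal hindbrain progenitors (1.40), Ventral hindbrain progenitors (1.33) and Dorsal spinal cord progenitors (0.91). These are small counts, but the stages did not overlap in the types whose values are given. *Mxd4* rose in Limb ectoderm (1.99), Pharyngeal mesoderm (1.75, adjusted p = 1.8e-04), Cardiopharyngeal progenitors FHF (1.03), Migratory neural crest (0.98), Ventral hindbrain progenitors (0.69) and Mesenchyme (0.55). In Pharyngeal mesoderm it went from 27.0 and 21.9 CPM to 87.8, 80.1, 121 and 80.7, and in Migratory neural crest from 16.4 and 18.6 to 46.2, 39.7, 33.2 and 35.1. *Mxi1* rose in Placodal ectoderm (1.17), Migratory neural crest (0.80), Branchial arch neural crest (0.78, from 12.6 and 12.3 CPM to 29.9, 28.8, 19.2 and 21.3) and Cardiopharyngeal progenitors FHF (0.76). *Mxd1* rose in Optic vesicle (1.01, adjusted p = 0.042), from 2.01 and 3.24 CPM to 7.77, 5.70, 5.98 and 5.38. *Mga* fell in Hindbrain floor plate (-0.67, from 100.6 and 107.4 CPM to 76.4, 61.5, 79.6 and 73.2) and Optic vesicle (-0.43). By type, Optic vesicle had calls for 7 members, and Branchial arch neural crest, Dorsal spinal cord progenitors, Migratory neural crest and Ventral hindbrain progenitors for 5 each. The share of all genes called in each type was not computed, so these counts do not set these types apart.

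The null cells, tested in 19 types, gave 18 pairs of the members higher and 14 lower. Over all genes 3.65% of gene and type pairs were higher and 4.23% lower. Of the members' pairs DESeq2 called 5 higher and 10 lower, and with counts scaled by all UMIs 23 were higher and 8 lower. The share of all pairs was not computed for these 2 settings. *Myc* was lower in 6 of 14 types, in Migratory neural crest (-1.47), Midbrain/Hindbrain boundary (-1.54), Ventral hindbrain progenitors (-1.51), Optic vesicle (-1.14), Dorsal spinal cord progenitors (-1.01) and Limb mesoderm (-0.89), each also a call in WT. *Mycn* was lower in 5 of 18, in Pharyngeal endoderm (-1.30), Cranial mesoderm (-1.07), Migratory neural crest (-0.71), Dorsal spinal cord progenitors (-0.54) and Optic vesicle (-0.47), which were WT calls too. *Mycl* was higher in 6 of 16: Amniotic ectoderm (2.59), Migratory neural crest (1.83), Surface ectoderm (1.66), Cardiopharyngeal progenitors FHF (1.46), Pharyngeal endoderm (1.18) and Optic vesicle (0.74). *Max* was lower in 2 of 19, Optic vesicle (-0.49) and Ventral hindbrain progenitors (-0.46). Of the repressors, *Mxd3* was higher in 5 of 12 types, Midbrain/Hindbrain boundary (2.54), Limb mesoderm (2.17), Hindbrain floor plate (1.78), Ventral hindbrain progenitors (1.21) and Optic vesicle (1.17). *Mxd4* was higher in 5 of 18, Surface ectoderm (1.46), Migratory neural crest (0.97), YS mesothelium (0.96), Amniotic ectoderm (0.89) and Mesenchyme (0.85), and lower in Hindbrain floor plate (-0.52). *Mxd1* was higher in 1 of 12 types, Migratory neural crest (1.72), and *Mxi1* in 1 of 18, Hindbrain floor plate (0.64). *Mnt* was called in none of 16 types and *Mga* in none of 19. Whether WT and null stage changes differ within a type was not tested. Without E8.5 null A, 10 pairs were called higher, and without E8.5 null B, 11 higher and 5 lower.

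**Figure D5:**
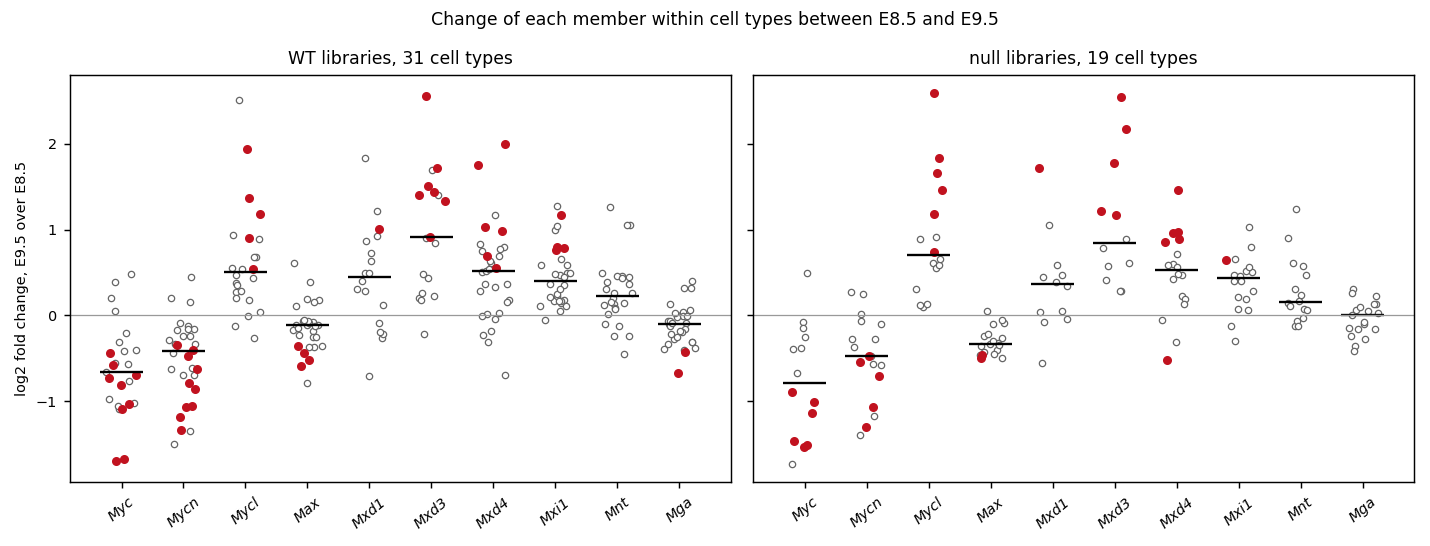
The log2 fold change of E9.5 over E8.5 (y axis) is plotted for each member (x axis), 1 point per cell type, in WT (left, 31 types) and null (right, 19 types) libraries; black bars are medians and filled red points passed edgeR's test at adjusted p under 0.05. Called points of *Myc*, *Mycn* and *Max* lie below 0 and those of *Mycl* and *Mxd3* above 0 in both panels.

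Between E7.5 and E8.5 only Lateral plate mesoderm and Mesenchyme had 2 libraries per stage. Over all genes 10.8% of WT pairs were higher and 8.65% lower, and 7.16% and 4.86% of null pairs. In WT Lateral plate mesoderm *Myc* fell by 0.84 (edgeR adjusted p = 0.0079), from 36.4 and 40.1 to 20.7 and 19.98 CPM, as *Mycn* rose by 1.36 (adjusted p = 4.2e-04), from 28.1 and 37.2 to 97.7 and 65.6 CPM. In null cells of that type *Myc* fell by 1.23 and *Mycn* rose by 1.50. In WT Mesenchyme *Myc* fell by 0.93 (adjusted p = 0.030) and *Mxd4* rose by 1.09 (adjusted p = 0.0017), from 18.9 and 17.8 to 44.2 and 33.1 CPM. In null Mesenchyme *Myc* fell by 1.17, and *Mxd4* rose by 1.04 and *Mxd3* by 1.57.

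A list of 35 genes that MYC is known to raise, mostly for nucleoli, ribosome assembly and mitochondrial chaperones, was read from the same fits. From E8.5 to E9.5 in WT whole libraries 30 of them fell, 1 rose (*Cdk4*, 0.15) and 4 did not pass (*Nme2*, *Eif4e*, *Rcc1* and *Ccnd2*), with a median of -0.44 against 0.06 over all genes. Scaled by all UMIs, 21 fell and 3 rose, with a median of -0.18 against 0.32. Within WT types 368 of 1069 pairs were lower (34.4%, against 5.16% of all pairs) and 13 higher (1.22%, against 4.48%). With counts scaled by all UMIs 232 were lower and 30 higher, and the share of all pairs was not computed on that scale. The shares of the list and of all pairs do not rest on equal precision. In the null against WT fits within types at E9.5 the median SE was 0.109 for this list and 0.186 for all genes. The list was also chosen with earlier results of these data known. *Npm1*, a nucleolar chaperone, was lower in 28 of 31 types, *Ldha*, of glycolysis, in 27, *Ncl*, a nucleolar protein, in 25, *Hspe1*, a mitochondrial chaperone, in 24, and *Gnl3*, of nucleoli, in 21. *Ccnd2*, a D-type cyclin, went the other way, higher in 12 types and lower in 2. In null cells 214 of 658 pairs were lower and 2 higher (4.23% and 3.65% of all pairs were). Between E7.5 and E8.5 in WT whole libraries 8 of the 35 rose and 8 fell (22.7% and 22% of all genes did). With counts scaled by all UMIs 2 rose and 17 fell, with a median of -0.22 against -0.16 over all genes. In null libraries 2 rose and 15 fell, where 3510 of 15567 genes rose and 2849 fell. The median was -0.12 against 0.04 over all genes.

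Of 3 genes that MYC is known to lower, *Cdkn2b*, a cell cycle inhibitor, rose by 1.48 in WT whole libraries from E8.5 to E9.5; within types *Cdkn1a* was higher in 2, and *Gadd45a* higher in 1 and lower in 1. Of 22 cofactors and turnover factors, 4 rose in whole libraries, *Mlxipl* (2.33), *Skp2* (0.39), *Zbtb17* (0.32) and *Hdac2* (0.25), and 5 fell, among them *Ruvbl2*, *Ruvbl1*, *Mlx* and *Aurka*, where 22.7% of all genes rose and 17.7% fell. Within WT types 35 of 635 pairs of this list were lower and 7 higher, among them those of *Ruvbl2*, of chromatin remodelers, lower in 11 types, *Ruvbl1* in 6, *Aurka* in 3, where it was also higher in 1, and *Skp2*, a ubiquitin ligase subunit, higher in 3. The lower and higher calls made up 5.51% and 1.10% of the list's pairs, against 5.16% and 4.48% of all pairs.

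Between genotypes, 0 of the 35 raised targets was called in whole libraries at each stage, and of the cofactors *Cdk9*, the elongation kinase, was lower in null cells at E9.5 (-0.29, edgeR adjusted p = 0.016). Within types no pair of any of the 3 lists passed with a log2 fold change over 1. The call of *Ccnd2* in Erythroid at E8.5 depended on the setting: its log2 fold change was -1.37 (edgeR adjusted p = 0.19), and it was called lower in null cells by DESeq2 (-1.37, adjusted p = 8.4e-05), without a filter on low counts (-1.36, edgeR adjusted p = 0.015) and with counts scaled by all UMIs (-1.35, 2.5e-05). *Cdkn1a*, a cell cycle inhibitor, was called higher in the same cells by DESeq2 (1.37, adjusted p = 0.040) and with counts scaled by all UMIs (1.46, edgeR adjusted p = 9.6e-05), and in 5 other pairs without a filter on low counts. The share of all pairs called was not computed for these settings. Without the fold threshold *Ccnd2* was lower in null Placodal ectoderm at E9.5 (-0.58, edgeR adjusted p = 0.032).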

How the data were processed

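The authors mapped reads to mm10 with Cell Ranger, counted UMIs per gene and cell, filtered cells, called doublets (3395 cells) and transferred cell type labels from an atlas. The deposited counts are raw UMI counts, and the deposited table of cells gives stage, tdTomato gate, library and label for 192657 barcodes, of which 41832 are in the matrix. Of the deposited columns the mitochondrial percent per cell, computed by the authors, was used as a check. Doublets were left out, and so were 596 cells of the tdTomato- gate that held tdTomato UMIs. Counts were summed per library, and per library and type where a library had more than 15 cells of it. After a gene filter modeled on the study's, 21275 genes remained and 8178 were left out. Unlike in the study, imprinted genes were not left out. Sums were tested with edgeR 4.0.16 (R 4.3.3; TMM, filterByExpr, robust glmQLFit, glmQLFTest) with Benjamini-Hochberg adjustment over all genes of a fit. Whole libraries and stages were called at adjusted p under 0.05, and null against WT within types also needed a log2 fold change over 1, as in the study. Alternatives were DESeq2 1.42.0, RLE normalization, no filter on low counts, over 50 cells, other tdTomato rules, left-out labels, left-out libraries and scaling by all UMIs. CPM is UMIs per 1000000 UMIs of the sum.

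All members were named. For each member and stage the 3 highest and 3 lowest WT types were named, as were all called pairs, up to 5 genes per list by number of types called, and the 5 genes most like *Myc* and *Mycn*. A gene of the cofactor list that this rule names is not reported here. The fits across all genes were tested on simulated data. The members, the lists and the within-type stage comparisons were chosen with earlier results of these data known. Intervals and floors (3 counts, 95%) cover counting error where they come from 1 library. The study blocked on embryo pool, which could not be done here.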

Additional observations from a re-analysis of the deposited data

Results flagged for a closer look

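In 46 groups of 4 libraries an extreme value was looked for by Dixon's criterion, which chance meets in about 1 of 20 groups, and 3 were found. *Max* was at 35.2 CPM in the whole library E9.5 null A, below the other null libraries (39.8 to 40.5 CPM). *Mxd3* in Dorsal hindbrain progenitors was at 14.1 CPM in E9.5 WT D, below the other WT libraries. *Mga* in Erythroid was at 30.3 CPM in E9.5 WT D, above the other WT libraries.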

How the results depend on the processing

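Of the counts that answer a comparison, 228 values under an alternative stayed within 1.5 times the main count and 25 moved. The 228 include counts of 0 that stayed at 0 and fits without a library of a stage outside the comparison. Their number is therefore no measure of stability. No called value changed sign. The cause was not tested for any value that moved. Except for the rule without a fold threshold, the share of all genes or pairs called was not computed under the alternatives. Members called in whole libraries were 1 at E7.5 between genotypes under DESeq2 (*Mxi1*) against 0. With 1 library left out in turn, 2 to 5 members were called between E7.5 and E8.5 (4 with all) and 3 to 9 between E8.5 and E9.5 (8 with all). Within types, null against WT without a fold threshold gave 1 pair at E9.5 (*Mxd4* in Sclerotome). For the MYC targets between genotypes within types (0), DESeq2 gave 2 (*Ccnd2* and *Cdkn1a*, both in Erythroid at E8.5), no filter on low counts 6, scaling by all UMIs 2, no fold threshold 1 and left-out libraries 0 to 5, the most without E8.5 null A, which leaves 1 null library that is assumed to vary like the WT ones.

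For stages within types, WT pairs called higher (23) were 11 under DESeq2, 38 with counts scaled by all UMIs and 10 to 22 without 1 library. WT pairs called lower (25) were 16, 14 and 11 to 24. Null pairs called higher (18) were 5 under DESeq2 and 10 to 17 without 1 library, and null pairs called lower (14) were 8 with counts scaled by all UMIs and 5 to 13. With each cell thinned to 10000 UMIs, the highest type stayed the same in 19 of 30 member and stage pairs (Spearman's rho over types 0.319 at the lowest, median 0.850). Requiring over 50 cells per library left no type at E7.5.

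No paired analysis was possible because cells carry library names that are not found in any sample title, and so no library has a pool number. At E7.5 and E8.5 2 libraries a group limit precision, and low counts limit *Mxd1* and *Mxd3*.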

Other observations

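Node, the organizer at the tip of the primitive streak, was held by 1 null library at E7.5 (40 cells) and by no WT library with more than 15 cells, so it entered no comparison within types, while its cells are part of the whole-library sum. Its levels were 158.6 CPM for *Mxi1*, 169.7 for *Mga*, 65.9 for *Mxd4*, 21.3 for *Max*, 20.4 for *Mycn*, 5.57 for *Mycl* and 1.86 for *Myc* (2 UMIs), and no UMI of *Mxd3* was found. *Mxi1* was at most 20.9 CPM in the WT types of that stage. The part of these cells in the E7.5 value of *Mxi1* over whole null libraries was not tested.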
